A study of Mus musculus with 10 samples.

Results

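The tissue macrophage genes of the embryonic mouse pinna were followed through 10 markers: *Csf1r*, *Adgre1*, *Cx3cr1*, *Mrc1*, *Cd68*, *C1qa*, *C1qb*, *C1qc*, *F13a1* and *Ptprc*. They were selected by gene symbol, and all 10 were found among the 53465 genes of the count table. Bulk RNA-seq had been made from the forming pinna prominences of E14.5 mouse embryos, 5 wild-type (WT) and 5 mEC1dup/dup. In mEC1dup/dup embryos both alleles carry an additional copy of mEC1, an enhancer of the homeobox gene *Hmx1*, inserted with CRISPR/Cas9. All mice had a C57BL/6J background. Replicates are separate embryos, described in the study's reporting summary as siblings of different litters without saying which library came from which litter. The duplication is carried in the germ line, so the macrophages and the tissue around them share it.

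Macrophages of the embryo arise from precursors in the yolk sac and fetal liver, settle in developing organs and clear dying cells. Their survival depends on CSF1R, the receptor for the growth factors CSF1 and IL-34, and many of them secrete the complement protein C1q. In developing skin and connective tissue they often carry the mannose receptor CD206, encoded by *Mrc1*, and coagulation factor XIIIA, encoded by *F13a1*.

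None of the 10 genes passed the test between genotypes, where 2.64% of all tested genes did in either direction. In none did the 5 mEC1dup/dup embryos lie entirely above or below the 5 WT embryos, as they did in 5.07% of all tested genes. The lowest fitted changes belonged to *Mrc1*, *Ptprc* and *F13a1*, at log2 fold changes of -0.22, -0.22 and -0.21. The other 7 genes had log2 fold changes between -0.08 and 0.04. Within the same tissue, 5 of 9 tested mast cell genes fell, where 1.81% of all tested genes did. None of these 5 calls was kept when *Xist*, which differs between the genotypes here, was added to the fit as a covariate (adjusted p of 0.174 to 0.397 from edgeR). Over all tested genes, that fit called 2 higher and 1 lower, against 137 and 297 without the covariate. The log2 fold changes of these 5 genes were -1.62 to -0.75 without the covariate and -1.53 to -0.78 with it. Fewer cells of a type and less RNA per cell cannot be told apart in such bulk samples.

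The libraries held 17461544 to 18462073 counts. In edgeR's quasi-likelihood test, run on 16426 genes, a gene passed when its adjusted p (Benjamini-Hochberg) did not exceed 0.05 and its average log2 CPM, the logarithm of counts scaled to library size, was 1 or more. SE is the standard error of a log2 fold change. *Hmx1* had 376 to 526 counts in WT libraries and 976 to 1356 in mEC1dup/dup libraries, a log2 fold change of 1.31 (SE 0.10, edgeR adjusted p = 0.000127). *Xist*, the transcript that silences an X chromosome in female cells, had 2 to 5 counts in WT libraries and 12812, 19040, 18165, 2096 and 0 counts in mEC1dup/dup replicates 1 to 5. The sex of the embryos is not given in the labels, and *Xist* and genotype are largely confounded in these libraries. *Hbb-y*, a globin gene of primitive red cells, was higher in mEC1dup/dup (214 to 381 CPM in WT and 385 to 749 CPM in mEC1dup/dup, log2 fold change 0.81, SE 0.19, edgeR adjusted p = 0.0407), a call kept in only 3 of the 10 fits with 1 embryo fewer (without WT replicate 4 or mEC1dup/dup replicate 1 or 4) and lost with robust estimation (edgeR adjusted p = 0.131). The part of *Xist* and of *Hbb-y* in the values below was not tested beyond fits with *Xist* as a covariate or without the libraries of high *Xist* counts.

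*C1qa*, *C1qb* and *C1qc* are neighbours on the minus strand of chromosome 4, and the other members lie on chromosomes of their own. The 250 bases before the start of the canonical transcript of these 3 genes are shown, because the 3 chains form a single protein and their fitted changes were among the smallest. The windows of *Mrc1* and *F13a1* are shown because these genes had the 2 lowest unadjusted p-values. For *F13a1* the canonical transcript starts downstream of the outermost start annotated, so its window lies inside the span given for the gene below. All are from GRCm39 and GENCODE, written 5′ to 3′ on the strand of the gene. Capitals mark GAGGAA, the core of the motif bound by PU.1 (the product of *Spi1*, a transcription factor required for macrophages), and TGCTGA, the core of the half-site bound by MAF factors, on either strand, so that a match on the opposite strand reads TTCCTC or TCAGCA.
C1qa, chr4:136626162-136626411, minus strand: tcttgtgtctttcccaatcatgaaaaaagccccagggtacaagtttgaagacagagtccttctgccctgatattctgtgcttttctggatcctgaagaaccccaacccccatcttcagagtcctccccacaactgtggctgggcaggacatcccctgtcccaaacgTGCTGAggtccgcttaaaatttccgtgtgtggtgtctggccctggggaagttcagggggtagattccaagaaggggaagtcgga
C1qb, chr4:136613512-136613761, minus strand: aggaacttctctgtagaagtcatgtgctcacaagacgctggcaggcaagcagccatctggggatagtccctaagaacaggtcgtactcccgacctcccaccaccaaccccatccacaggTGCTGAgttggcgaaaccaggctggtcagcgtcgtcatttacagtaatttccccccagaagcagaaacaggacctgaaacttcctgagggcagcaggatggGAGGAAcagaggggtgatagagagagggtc
C1qc, chr4:136620377-136620626, minus strand: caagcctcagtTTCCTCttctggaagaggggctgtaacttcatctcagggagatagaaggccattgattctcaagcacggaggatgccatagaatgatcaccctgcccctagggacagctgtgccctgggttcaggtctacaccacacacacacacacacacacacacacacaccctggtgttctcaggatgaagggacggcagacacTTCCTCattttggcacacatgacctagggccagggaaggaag
Mrc1, chr2:14233901-14234150, plus strand: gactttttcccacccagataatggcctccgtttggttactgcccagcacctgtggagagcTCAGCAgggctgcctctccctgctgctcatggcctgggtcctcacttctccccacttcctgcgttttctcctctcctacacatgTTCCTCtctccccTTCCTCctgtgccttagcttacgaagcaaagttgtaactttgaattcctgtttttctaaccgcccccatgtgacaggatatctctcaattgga
F13a1, chr13:37233265-37233514, minus strand: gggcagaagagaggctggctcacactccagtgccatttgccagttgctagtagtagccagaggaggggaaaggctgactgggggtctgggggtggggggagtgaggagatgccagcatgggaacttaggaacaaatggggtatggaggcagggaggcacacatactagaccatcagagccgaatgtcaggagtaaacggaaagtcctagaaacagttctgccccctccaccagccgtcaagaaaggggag
GAGGAA was found in the windows of 6 of the 9 genes searched (*Csf1r* was not searched) and TGCTGA in 3, and no match of one motif overlapped a match of the other in the printed windows. Of 21770 windows of the same length before protein-coding genes, 22.9% held GAGGAA and 14.8% held TGCTGA. *Mrc1* held 2 GAGGAA matches, *C1qc* held 2 and *C1qb* held 1, whereas the windows of *C1qa* and *F13a1* held none. These matches are letters in a window and were not measured as binding sites.

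The members were ordered by their level in WT, given as CPM per kilobase of the canonical transcript. *C1qa* was highest at 18.1 ± 1.81 CPM per kb (SD, n = 5), followed by *C1qc* at 12.3 ± 1.32 (SD, n = 5), and the ranges of these 2 genes overlapped neither each other nor those of the remaining members. *F13a1* (8.77 ± 0.85), *C1qb* (8.34 ± 0.56), *Cd68* (8.31 ± 1.05), *Cx3cr1* (7.74 ± 0.30) and *Csf1r* (7.13 ± 0.83 CPM per kb, SD, n = 5) came next, and neighbours in this order did not differ beyond their spread. *Mrc1* followed at 6.09 ± 0.59, *Adgre1* at 4.23 ± 0.37 and *Ptprc* at 1.15 ± 0.14 CPM per kb (SD, n = 5). This order depends on the gene model. Per kilobase of all annotated exonic bases, the WT level of *C1qb* was 3.38, below every member but *Ptprc*, that of *F13a1* was 5.10, below *Cd68* (7.27), *Cx3cr1* (6.25) and *Csf1r* (5.86), and that of *C1qc* (7.97) was no longer separate from *Cd68*. Together, the 10 genes took 0.0204% to 0.0253% of the counts of a library.

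*Csf1r* (ENSMUSG00000024621, chr18:61229714-61266535, plus strand) encodes the receptor tyrosine kinase on which macrophage survival depends. It had 51.8, 39.8, 40.2, 40.7 and 43.3 CPM in WT replicates 1 to 5. It had 48.6, 42.8, 39.9, 36.9 and 45.4 CPM in mEC1dup/dup replicates 1 to 5. The groups overlapped over most of their range, with replicate 1 the highest in each genotype and a single mEC1dup/dup embryo, replicate 4, below the lowest WT embryo. The means were 43.2 ± 5.04 and 42.7 ± 4.54 CPM (SD, n = 5 each), and the log2 fold change was -0.01 (SE 0.09, 95% interval -0.20 to 0.17, edgeR adjusted p = 0.957). As a percent change, that interval runs from -13.1% to 12.7%. Antisense *Hmgxb3* overlaps 19.8% of the exonic bases of *Csf1r*, and the library kit did not mark strand.

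*Cx3cr1* (ENSMUSG00000052336, chr9:119877749-119898945, minus strand), the fractalkine receptor of macrophages and microglia, was the member with the least relative spread in WT. Its levels were 28.5, 30.4, 28.4, 30.1 and 27.9 CPM in WT replicates 1 to 5 and 34.6, 26.6, 29.9, 26.1 and 32.1 CPM in mEC1dup/dup replicates 1 to 5. The mEC1dup/dup embryos lay on both sides of the WT range, 2 above it and 2 below. The log2 fold change of 0.04 (SE 0.08, 95% interval -0.13 to 0.20, edgeR adjusted p = 0.866) was the highest among the members.

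*Adgre1* (ENSMUSG00000004730, chr17:57665573-57790527, plus strand) encodes F4/80, the surface receptor by which mouse macrophages are commonly recognised. Its levels were 16.2, 13.6, 12.965, 14.0 and 14.2 CPM in WT replicates 1 to 5 and 18.2, 12.2, 13.1, 11.5 and 13.4 CPM in mEC1dup/dup replicates 1 to 5. A single mEC1dup/dup embryo, replicate 1, lay above all others of both genotypes. The log2 fold change was -0.05 (SE 0.12, 95% interval -0.31 to 0.20, edgeR adjusted p = 0.871), and without mEC1dup/dup replicate 1 it was -0.18 (edgeR adjusted p = 0.353).

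*Cd68* (ENSMUSG00000018774, chr11:69555037-69557067, minus strand) encodes a glycoprotein of late endosomes and lysosomes. Its levels were 11.7, 8.25, 9.54, 10.1 and 10.2 CPM in WT replicates 1 to 5 and 9.31, 9.48, 9.88, 8.90 and 9.48 CPM in mEC1dup/dup replicates 1 to 5. All 5 mEC1dup/dup embryos lay inside the WT range. The log2 fold change was -0.08 (SE 0.10, 95% interval -0.29 to 0.13, edgeR adjusted p = 0.748).

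The 3 C1q chains, which assemble into the molecule that starts the classical complement pathway and tags dying cells and synapses, had nearly equal mean levels in the 2 genotypes. *C1qa* (ENSMUSG00000036887, chr4:136623223-136626161) had 18.3, 17.5, 19.4, 20.9 and 22.3 CPM in WT replicates 1 to 5 and 19.7, 20.2, 19.4, 20.2 and 20.2 CPM in mEC1dup/dup replicates 1 to 5. *C1qb* (ENSMUSG00000036905, chr4:136606009-136613511) had 21.3, 20.3, 19.4, 21.5 and 23.2 CPM in WT and 22.6, 20.3, 23.4, 21.7 and 18.7 CPM in mEC1dup/dup, and *C1qc* (ENSMUSG00000036896, chr4:136616466-136620376) had 24.5, 23.6, 20.8, 25.4 and 19.7 CPM in WT and 25.1, 19.0, 19.8, 22.2 and 25.1 CPM in mEC1dup/dup, both in replicate order. In all 3 genes the groups overlapped, and the mEC1dup/dup embryos of *C1qa* lay entirely inside the WT range. The log2 fold changes were 0.02 for *C1qa* (SE 0.07, adjusted p = 0.928), 0.02 for *C1qb* (SE 0.07, adjusted p = 0.946) and -0.03 for *C1qc* (SE 0.10, adjusted p = 0.902), each from the edgeR test. Their 95% intervals were -0.13 to 0.17, -0.14 to 0.18 and -0.24 to 0.18. Summed over the 3 chains, the level was 63.6 ± 3.26 CPM in WT and 63.6 ± 2.84 CPM in mEC1dup/dup (SD, n = 5 each). An antisense gene, *Gm69251*, overlaps 8.64% of the exonic bases of *C1qc* and 0.977% of those of *C1qb*.

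*Mrc1* (ENSMUSG00000026712, chr2:14234151-14336926, plus strand) encodes the mannose receptor CD206, an endocytic receptor of tissue macrophages that is also made by lymphatic and sinusoidal endothelium. It had 38.9, 31.5, 33.5, 31.9 and 31.2 CPM in WT replicates 1 to 5. It had 32.9, 28.4, 28.2, 25.5 and 28.0 CPM in mEC1dup/dup replicates 1 to 5. Of the mEC1dup/dup embryos, 4 lay below the lowest WT embryo, and replicate 1 lay inside the WT range. The means were 33.4 ± 3.23 and 28.6 ± 2.7 CPM (SD, n = 5 each), and the fitted log2 fold change was -0.22 (SE 0.08, 95% interval -0.39 to -0.05, unadjusted p = 0.0133, edgeR adjusted p = 0.163). The fitted difference was -14.4%, with an interval from -23.8% to -3.73%, and it did not pass the adjustment over all tested genes. In a fit that also held a block for replicate number, *Mrc1* was called lower (log2 fold change -0.22, edgeR adjusted p = 0.0431). Same-numbered libraries are different embryos, though on average more alike than others, and the main fit did not take the numbers as pairs. The 10 blood and lymphatic endothelial genes had a median log2 fold change of 0.01 with 0 passing, and their summed level was 536 to 660 CPM in WT and 555 to 629 CPM in mEC1dup/dup. Their part in the value of *Mrc1* was not tested.

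*F13a1* (ENSMUSG00000039109, chr13:37051152-37234277, minus strand) encodes the A chain of coagulation factor XIII, a transglutaminase found in resident macrophages and in platelets. It had 39.7, 34.2, 31.0, 36.0 and 32.5 CPM in WT replicates 1 to 5. It had 35.1, 29.7, 28.8, 24.8 and 31.5 CPM in mEC1dup/dup replicates 1 to 5. In mEC1dup/dup, 3 embryos lay below the lowest WT embryo, and replicates 1 and 5 lay inside the WT range. The means were 34.7 ± 3.36 and 30.0 ± 3.78 CPM (SD, n = 5 each), and the fitted log2 fold change was -0.21 (SE 0.09, 95% interval -0.40 to -0.02, unadjusted p = 0.0365, edgeR adjusted p = 0.267). The fitted difference was -13.5%, with an interval from -24.4% to -1.06%. Of the platelet and megakaryocyte genes, 1 of 5 tested fell: *Itga2b*, the platelet fibrinogen receptor chain, from 7.06 ± 1.32 to 4.68 ± 0.34 CPM (SD, n = 5 each, log2 fold change -0.59, SE 0.14, edgeR adjusted p = 0.0416), a call kept in only 2 of the 10 fits with 1 embryo fewer, those without WT replicate 4 or 5. It was also lost with no filter on low counts (edgeR adjusted p = 0.0527) and by limma-voom (adjusted p = 0.054). The 8 listed platelet genes summed to 32.1 to 37.2 CPM in WT and 27.6 to 35.8 CPM in mEC1dup/dup, and their part in the value of *F13a1* was not tested.

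*Ptprc* (ENSMUSG00000026395, chr1:137990599-138103446, minus strand) encodes CD45, the phosphatase on the surface of white blood cells, mast cells included. Its counts, the fewest of the members, were 100, 109, 122, 110 and 87 for WT replicates 1 to 5 and 116, 91, 75, 89 and 91 for mEC1dup/dup replicates 1 to 5. In CPM these were 5.78, 6.03, 6.85, 6.09 and 4.82, and 6.63, 5.02, 4.07, 4.80 and 4.93. The groups overlapped, with the highest mEC1dup/dup embryo, replicate 1, second only to WT replicate 3. The log2 fold change was -0.22 (SE 0.15, 95% interval -0.53 to 0.10, edgeR adjusted p = 0.515), which as a percent change runs from -30.8% to 6.95%.

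**Figure D1:**
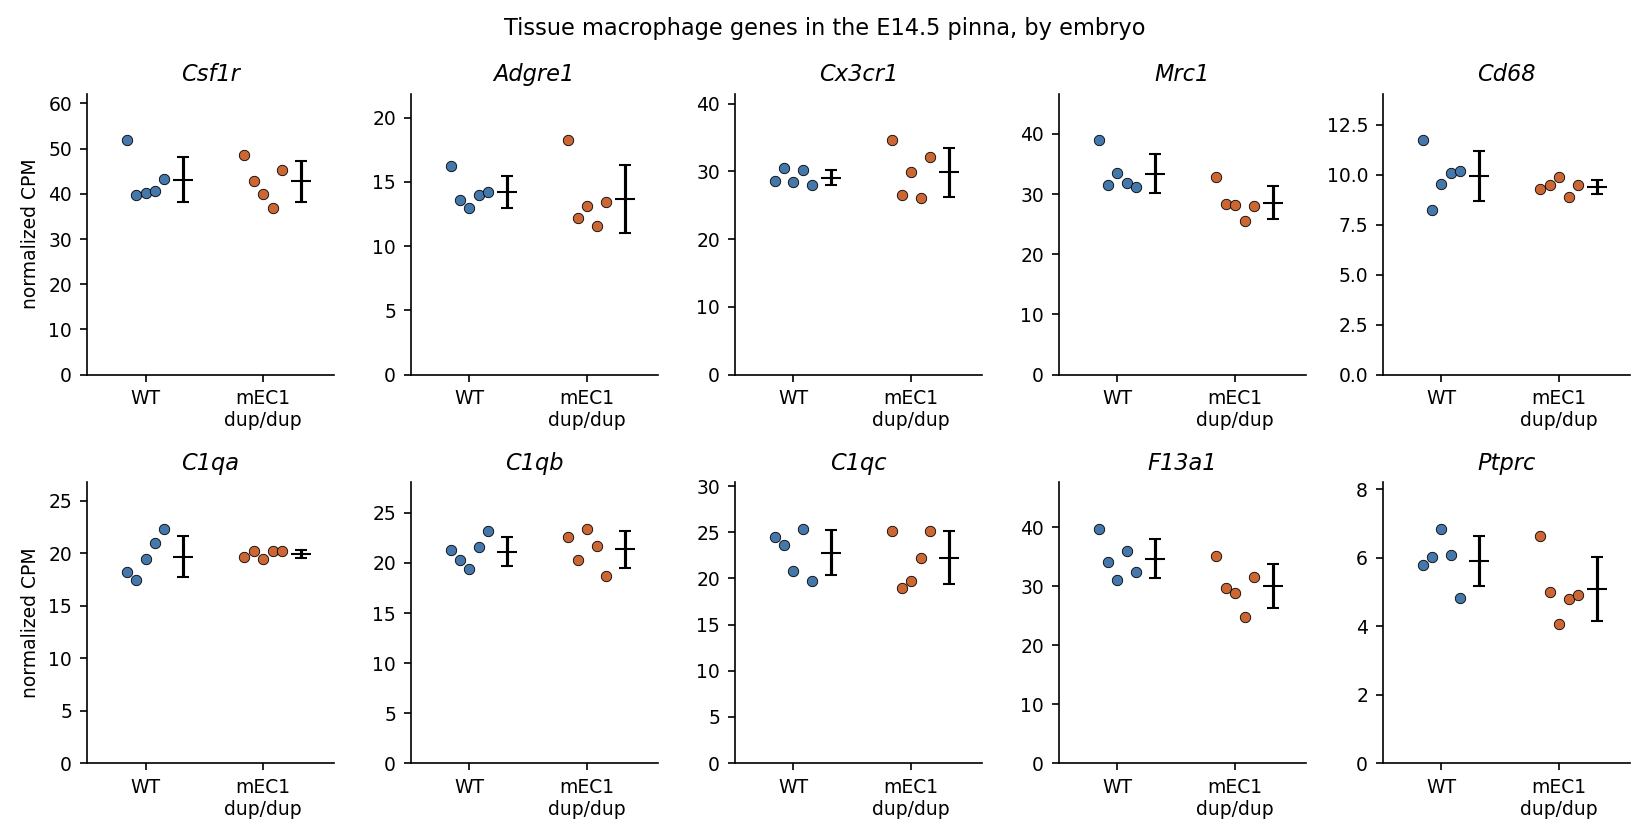
Normalised CPM of the 10 tissue macrophage genes in each of the 5 WT (blue) and 5 mEC1dup/dup (orange) embryos at E14.5, in replicate order from left to right, with the mean and SD of each genotype in black. The genotypes overlap for every gene, and for *Mrc1* 4 of 5 mEC1dup/dup embryos lie below the lowest WT embryo.

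Read together, 0 of the 10 genes passed the test, where 2.64% of all tested genes passed in either direction (0.834% higher and 1.81% lower). At an unadjusted p under 0.05, the 2 genes *Mrc1* and *F13a1* were lower and none was higher, where 9.08% of all tested genes were lower and 7.10% higher. By the other tools run, limma-voom and the Wald test of DESeq2, 0 members passed as well. None of the 10 had genotypes without overlap, against 5.07% of all tested genes (2.33% higher and 2.75% lower). The log2 fold change was negative in 7 genes and positive in 3 with a median of -0.04, and over all tested genes 51.2% were negative with a median near 0 (-0.0041). For the 7 genes other than *Mrc1*, *F13a1* and *Ptprc*, the standard errors of 0.07 to 0.12 left 95% intervals that stayed within changes of -19.2% and 15.0%. The p-value of a gene that misses the threshold does not show that its level is the same in both genotypes, and these intervals give the sizes left within counting and embryo-to-embryo error.

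**Figure D2:**
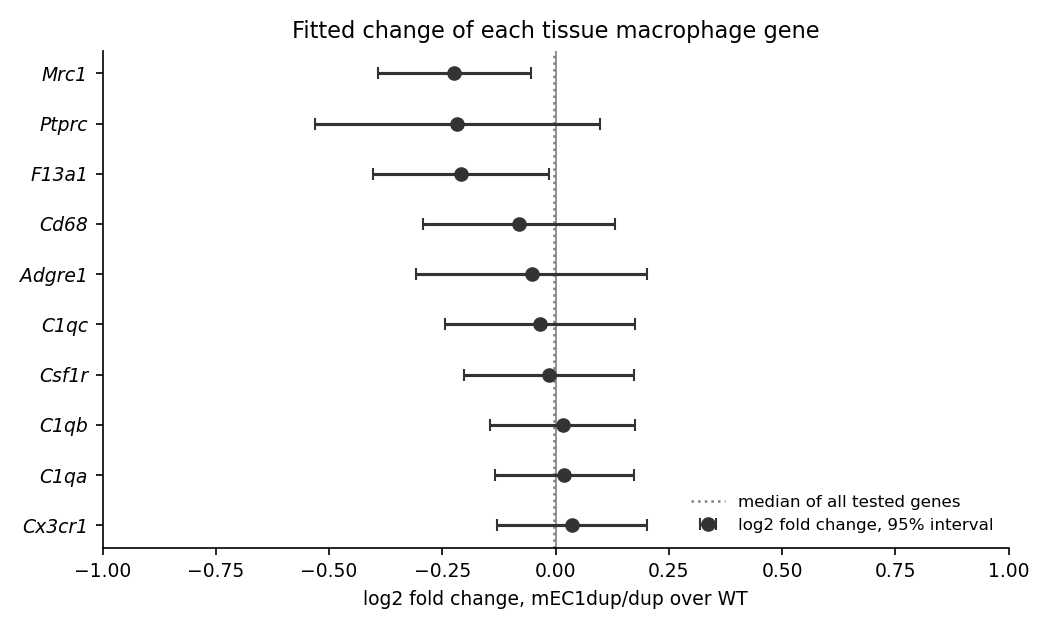
Log2 fold change of each tissue macrophage gene, mEC1dup/dup over WT, from the edgeR fit (points) with 95% intervals (bars), and the median of all tested genes (dotted line). The intervals of *Mrc1* and *F13a1* lie below 0, and the other 8 include it.

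The summed level of the 10 genes was 234 ± 13.9 CPM in WT and 223 ± 19.1 CPM in mEC1dup/dup (SD, n = 5 each). The mEC1dup/dup embryos ranged from 203 to 253 CPM and the WT embryos from 222 to 257 CPM, so 3 mEC1dup/dup embryos lay below all WT embryos. Among embryos of a genotype, the coefficient of variation of a member had a median of 9.84% in WT and 11.4% in mEC1dup/dup. Among the 6394 tested genes in the same range of levels it was 9.17% and 8.85%, and counting error alone gives a median of 5.05% and 5.02% for the members. *Adgre1* in mEC1dup/dup had the widest spread, at 19.3%, and *C1qa* in mEC1dup/dup the narrowest, at 1.87%, which is under its counting error.

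Pairs of members were compared from embryo to embryo. After the mean of each genotype was subtracted, the 6 highest correlations, 0.81 to 0.87 over the 10 embryos, were those among *Csf1r*, *Adgre1*, *Mrc1* and *F13a1*, a set chosen after the values were seen, against a median of 0.35 (-0.38 to 0.87) over all 45 pairs. The 3 pairs among the C1q chains ranged from -0.28 to 0.28, although their genes adjoin. Against the mean of the other members, *Adgre1* had the highest correlation (0.94), followed by *F13a1* (0.88), *Mrc1* (0.82) and *Csf1r* (0.80), and *C1qb* (0.03) and *C1qa* (-0.22) the lowest. The members stood 0.11 and 0.19 above their genotype mean on the log2 scale in WT replicate 1 and mEC1dup/dup replicate 1, the 2 embryos farthest from the median over all 10, and at -0.11 in mEC1dup/dup replicate 4. Without the 2 farthest embryos the 6 pairs ranged from 0.25 to 0.73 and the median of all pairs was 0.24. The members of an embryo share its library and its scaling, so these correlations are descriptions.

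Genes that are no members were ranked by how closely their pattern over the 10 embryos followed the mean of the members, by the same measure. Among the most alike were *Kitl*, which encodes the ligand of the receptor KIT, at a Pearson's r of 0.98 (Spearman's rho 0.89), and *Ctsc*, a lysosomal protease that activates the serine proteases of immune cells, at 0.96 (rho 0.85). *Parm1*, *Arhgap6*, *Cenpo*, *Apool*, *Liph*, *Gm5763* and *Gm13219* came after these, at 0.95 to 0.91. No gene of these 9 belonged to the macrophage and myeloid lists. Without WT replicate 1 and mEC1dup/dup replicate 1 their correlations ranged from 0.59 to 0.92. They were picked from all tested genes for this likeness, so the size of r is set by that choice.

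Set against *Csf1r* in the same embryo, *Mrc1* and *F13a1* were lower in mEC1dup/dup. *Mrc1* had 77.6 ± 4.30 CPM per 100 CPM of *Csf1r* in WT (72.0 to 83.4) and 67.1 ± 3.38 in mEC1dup/dup (61.7 to 70.6, SD, n = 5 each), and the genotypes did not overlap. *F13a1* had 80.6 ± 6.08 per 100 in WT (74.9 to 88.4) and 70.1 ± 2.17 in mEC1dup/dup (67.2 to 72.4), again without overlap. The same ratio overlapped between genotypes for *Adgre1* (33.0 ± 1.33 and 31.9 ± 3.54) and for *Cx3cr1* (68.2 ± 8.61 and 69.9 ± 4.72). *Csf1r* was taken as the reference after the values had been seen, so the ratios are given without a test. Against the mean of the other 9 members instead, the embryos of the 2 genotypes overlapped for *Mrc1* (a log2 difference of -0.16, with 4 of 5 mEC1dup/dup embryos below all WT embryos) and for *F13a1* (-0.15). Over all tested genes that are no members, the level relative to *Csf1r* did not overlap between genotypes for 0.244% higher and 1.83% lower in mEC1dup/dup, and the level relative to the mean of the 10 members for 1.43% higher and 1.55% lower.

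**Figure D3:**
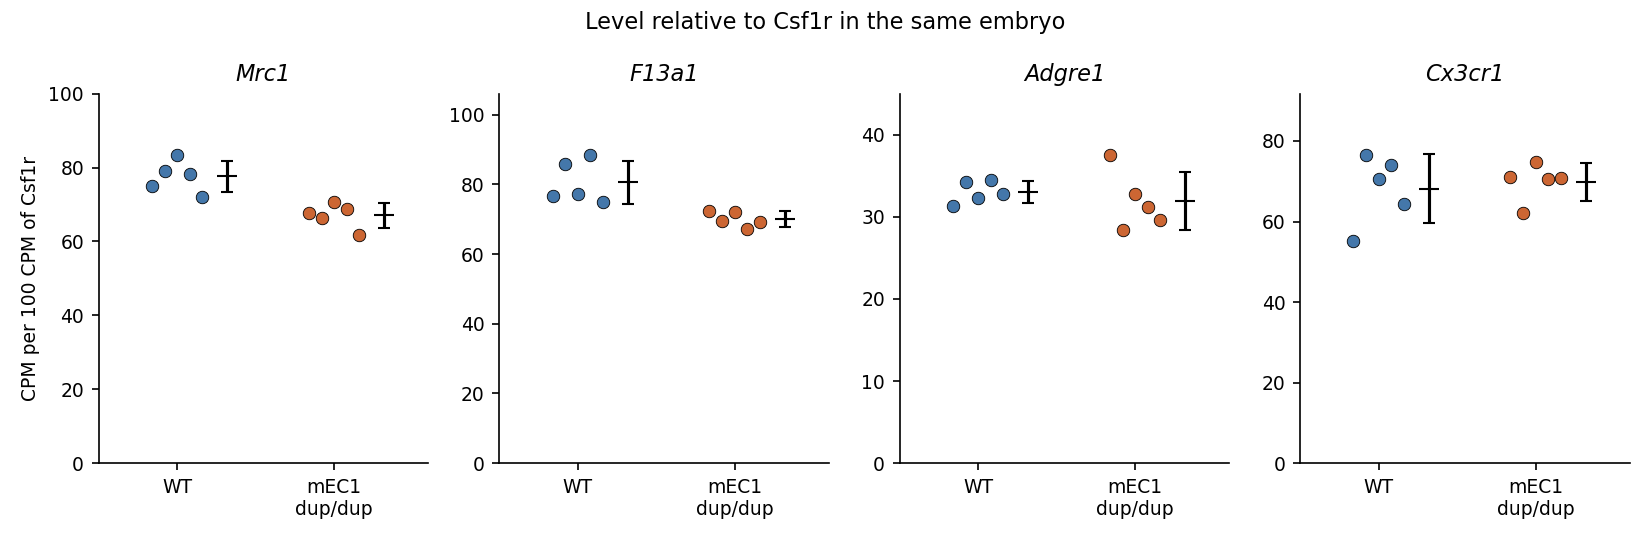
Level of *Mrc1*, *F13a1*, *Adgre1* and *Cx3cr1* in CPM per 100 CPM of *Csf1r* in the same embryo, for 5 WT (blue) and 5 mEC1dup/dup (orange) embryos, with mean and SD in black. For *Mrc1* and *F13a1* every mEC1dup/dup embryo lies below every WT embryo, and for the other 2 genes the genotypes overlap.

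Ligands of CSF1R and CX3CR1, other growth factors and their receptors, and chemokines of monocytes and stroma were read in the same fit. Of 11 tested ligand, receptor and chemokine genes, 1 rose and 0 fell, with a median log2 fold change of -0.16. *Cxcl12*, a chemokine of stromal cells, rose from 387 ± 28.0 to 467 ± 26.6 CPM (SD, n = 5 each, log2 fold change 0.27, SE 0.05, edgeR adjusted p = 0.0188), a call lost in 4 of the 10 fits with 1 embryo fewer (WT replicate 1 or 3, or mEC1dup/dup replicate 2 or 3). *Csf1*, the ligand of CSF1R, had 32.2 ± 1.97 CPM in WT (30.0 to 35.2) and 28.8 ± 0.17 CPM in mEC1dup/dup (28.6 to 29.0, SD, n = 5 each). All 5 mEC1dup/dup embryos lay below the WT embryos, as in 2.75% of all tested genes, and the log2 fold change of -0.16 did not pass the adjustment (SE 0.05, edgeR adjusted p = 0.120). *Il34*, which encodes the other ligand of CSF1R, and *Cx3cl1*, the ligand of CX3CR1, both named after their values were seen, had log2 fold changes of -0.26 (SE 0.35, edgeR adjusted p = 0.780) and -0.23 (SE 0.14, edgeR adjusted p = 0.474). *Tgfb1*, a growth factor that macrophages both make and answer to, had a log2 fold change of -0.25 (SE 0.07, adjusted p = 0.0898), and *Csf2ra*, a subunit of the GM-CSF receptor, one of 0.03 (SE 0.08, edgeR adjusted p = 0.888).

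Among 37 tested other macrophage and myeloid genes, 1 fell and 0 rose, with 24 negative and 13 positive log2 fold changes and a median of -0.08. The gene that fell was *Cebpa*, which encodes a transcription factor of myeloid cells and of fat and epidermal cells, from 42.4 ± 6.69 to 28.2 ± 3.29 CPM (SD, n = 5 each). Its genotypes did not overlap, as in 2.75% of all tested genes in this direction, and the log2 fold change was -0.58 (SE 0.11, edgeR adjusted p = 0.0126). Of the 8 keratinocyte genes, 7 had negative log2 fold changes and *Epcam* a positive one of 0.04, with 5 lower calls (*Krt1*, *Krt10*, *Perp*, *Krt5* and *Krt14*). Their summed level was 887 to 1695 CPM in WT and 649 to 861 CPM in mEC1dup/dup, and their part in the value of *Cebpa* was not tested. The call of *Krt5* was lost in 5 of the 10 fits with 1 embryo fewer (WT replicate 2, or mEC1dup/dup replicate 2, 3, 4 or 5) and that of *Krt14* in 6 (the same and WT replicate 3). With robust estimation the calls of *Perp*, *Krt5* and *Krt14* were lost (edgeR adjusted p of 0.0567, 0.0919 and 0.0977). *Spi1*, chosen after its values were seen as the gene for PU.1, had 9.68 ± 1.33 and 9.73 ± 0.98 CPM (SD, n = 5 each, log2 fold change 0.01, SE 0.11, edgeR adjusted p = 0.983). The most abundant genes of the list, *Grn*, *Lgmn* and *Stab1*, a growth factor precursor, a lysosomal protease and a scavenger receptor, had log2 fold changes of -0.04, 0.04 and -0.12 and did not pass. *Cd163*, *Folr2* and *Timd4*, surface receptors of resident macrophages, had at most 12 counts in any library and were not tested.

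Complement genes outside C1q gave 1 lower call in 14 tested and a median log2 fold change of -0.07. *Cd55*, a surface inhibitor of complement, fell from 11.3 ± 0.90 to 8.33 ± 1.16 CPM (SD, n = 5 each, log2 fold change -0.44, SE 0.11, edgeR adjusted p = 0.0458), and the call was kept in only 2 of the 10 fits with 1 embryo fewer, those without WT replicate 4 or mEC1dup/dup replicate 1, and lost with no filter on low counts (edgeR adjusted p = 0.0653). Efferocytosis and lysosome genes gave 1 lower call in 23 tested and a median of -0.07, with 20 of 23 negative. *Lgals3*, a galectin of macrophages and of epithelia, fell from 12.3 ± 3.79 to 6.74 ± 0.90 CPM (SD, n = 5 each, log2 fold change -0.86, SE 0.18, edgeR adjusted p = 0.0224). Its genotypes did not overlap, as in 2.75% of all tested genes in this direction. Without mEC1dup/dup replicate 2 or 3 its adjusted p was over 0.05, at most 0.0732. The part of the keratinocyte genes, given above, in the value of *Lgals3* was not tested. Of the genes that did not pass, those of highest mean level over both genotypes, *Ctsb*, *Axl* and *Lamp1*, a lysosomal protease, a receptor for dying cells and a lysosomal membrane protein, had log2 fold changes of -0.05, -0.05 and -0.0048. *Lamp2*, another lysosomal membrane protein, named after its values were seen, had 223 ± 9.26 CPM in WT and 203 ± 7.74 CPM in mEC1dup/dup (SD, n = 5 each). Every mEC1dup/dup embryo lay below the WT embryos, as in 2.75% of all tested genes, and the log2 fold change of -0.14 did not pass (SE 0.04, edgeR adjusted p = 0.0803).

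Other blood and immune lists were read to see which cells the tissue holds. The mast cell genes had 9 tested members, all with negative log2 fold changes, and 5 fell: *Tpsb2*, *Cma1*, *Cpa3*, *Hdc* and *Il1rl1*. The products of *Tpsb2*, *Cma1* and *Cpa3* are proteases of mast cell granules, *Hdc* encodes the enzyme that makes histamine and *Il1rl1* the IL-33 receptor. *Cpa3* had 31.3 ± 6.45 CPM in WT and 15.3 ± 1.95 CPM in mEC1dup/dup (SD, n = 5 each, log2 fold change -1.03, SE 0.14, edgeR adjusted p = 0.00393). The log2 fold changes of *Tpsb2*, *Cma1*, *Hdc* and *Il1rl1* were -1.62, -1.41, -1.05 and -0.75, and in all 5 genes the genotypes did not overlap, as in 2.75% of all tested genes in this direction. The call of *Il1rl1* was lost in 6 of the 10 fits with 1 embryo fewer (WT replicate 1, 2 or 3, or mEC1dup/dup replicate 2, 3 or 4), and the other 4 calls were kept in all 10. The 11 listed genes summed to 126 to 176 CPM in WT and 83.3 to 116 CPM in mEC1dup/dup. *Ptprc* is also expressed by mast cells, and their part in its value was not tested. The study's supplement names some of these mast cell genes for the same libraries, so the list is not independent evidence of the direction.

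None of 9 tested monocyte and neutrophil genes passed (median log2 fold change -0.23, summed level of the 12 listed 22.2 to 32.4 CPM in WT and 21.0 to 29.6 CPM in mEC1dup/dup), nor did any of 6 antigen presentation genes (median -0.15) or 4 microglia genes (median 0.12). At an unadjusted p under 0.05 these 3 lists had 1, 0 and 1 genes, against 16.2% of all tested genes in either direction. The same limit was met by 8 of 23 efferocytosis and lysosome, 3 of 14 complement and 3 of 11 ligand, receptor and chemokine genes. It was also met by 8 of 9 mast cell and 3 of 37 other macrophage and myeloid genes. The microglia gene that met it was *Tmem119*, with 85.8 ± 7.57 CPM in WT and 95.7 ± 3.20 CPM in mEC1dup/dup (SD, n = 5 each). *Tmem119* made up most of the microglia list's summed level (89.6 to 112 CPM in WT), and which cells express it was not tested. Of 12 lymphocyte genes, only *Cd4* had enough counts to be tested, *Ms4a1* and *Ncr1* had 0 counts in every library, and the 12 genes summed to 1.27 to 2.82 CPM in WT and 1.96 to 3.43 CPM in mEC1dup/dup. Their part in the value of *Ptprc* was not tested. Of 9 erythroid genes 1 fell, *Hba-a2*, and the list summed to 1028 to 1600 CPM in WT and 994 to 2038 CPM in mEC1dup/dup. *Hba-a2* had 25.8 ± 1.76 CPM in WT and 18.4 ± 3.42 CPM in mEC1dup/dup (SD, n = 5 each). *Hba-a1*, the other alpha-globin gene listed, had 615 ± 105 and 630 ± 217 CPM (SD, n = 5 each, log2 fold change 0.03, SE 0.18, edgeR adjusted p = 0.951). How reads that match both genes were assigned is not given. Of 8 skeletal muscle genes 2 fell, *Ckm* and *Myh3*, and of 8 mesenchyme and cartilage genes 1 fell, *Lum*. Log2 fold changes were negative in 4 of 9 erythroid, 6 of 8 muscle and 6 of 8 mesenchyme and cartilage genes. In the same order the medians were 0.03, -0.42 and -0.28. The call of *Hba-a2* was kept in only 2 of the 10 fits with 1 embryo fewer (without WT replicate 4 or mEC1dup/dup replicate 5) and that of *Myh3* in 3 (without WT replicate 2 or 4 or mEC1dup/dup replicate 1), and with robust estimation the adjusted p of *Myh3* was 0.105 (edgeR).

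**Figure D4:**
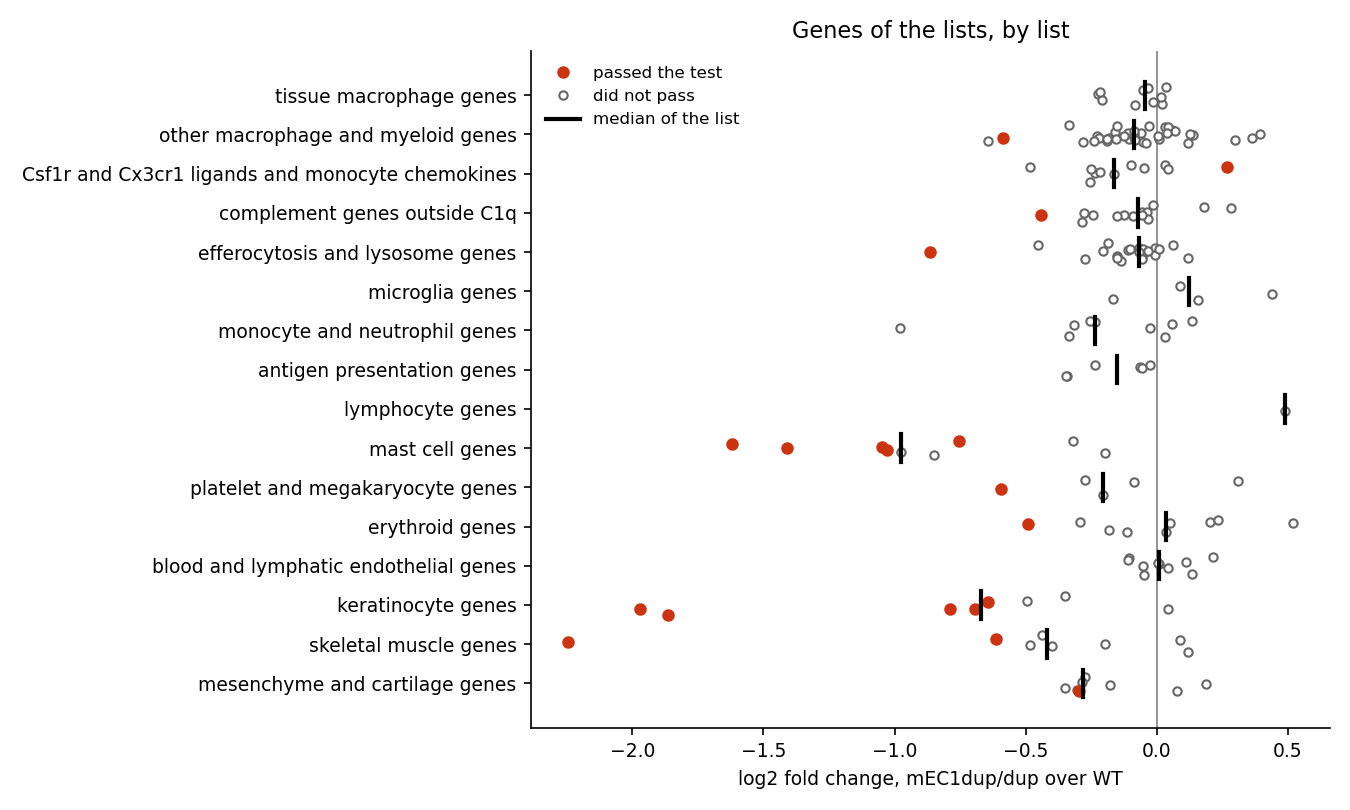
Log2 fold change, mEC1dup/dup over WT, of every tested gene in each list (1 point per gene, red where the gene passed the edgeR test), with the list's median as a black bar. The tissue macrophage genes lie between -0.22 and 0.04 with none passing, and the mast cell genes lie between -1.62 and -0.20 with 5 passing.

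Calls in these lists, as over all tested genes, changed when *Xist* was taken into account. With *Xist* as a covariate, 2 genes were called higher and 1 lower over all tested genes, against 137 and 297 without it. When the log2 CPM of *Xist* entered the fit as a covariate, only *Hmx1* and *Hba-a2* of the genes named above kept their call, and *Cebpa*, *Cpa3* and *Tpsb2* had log2 fold changes of -0.50, -0.89 and -1.53 with adjusted p of 0.398, 0.323 and 0.174 from the edgeR test. For *Krt1*, *Krt10*, *Perp*, *Krt5* and *Krt14* the log2 fold changes were -1.97, -1.86, -0.79, -0.69 and -0.64 without the covariate. With it they were -1.85, -1.81, -0.87, -0.80 and -0.78. Those of *Ckm*, *Myh3*, *Lum*, *Lgals3* and *Cd55* were -2.25, -0.61, -0.30, -0.86 and -0.44 without it. With it they were -1.85, -0.58, -0.37, -0.83 and -0.47. Those of *Itga2b* and *Cxcl12* were -0.59 and 0.27 without it and -0.49 and 0.29 with it. The log2 fold change of *Hba-a2* was -0.49 without the covariate and -0.95 with it (edgeR adjusted p = 0.0169), and that of *Hbb-y* was 0.81 without it and 1.31 with it (edgeR adjusted p = 0.0994). In that fit 0 of the 10 tissue macrophage genes passed, the log2 fold change was -0.28 for *Mrc1* (edgeR adjusted p = 0.526) and -0.20 for *F13a1* (edgeR adjusted p = 0.719). With mEC1dup/dup replicates 1 to 3, the libraries of most *Xist*, left out, *Mrc1* and *F13a1* had log2 fold changes of -0.32 (adjusted p = 0.282) and -0.30 (adjusted p = 0.388), again with 0 members passing. The embryos left in that comparison are 5 WT and 2 mEC1dup/dup.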

How the data were processed

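The members and the other gene lists were chosen with earlier results of these data known. Genes named from the lists are those that passed the test and up to 3 others of highest level, and *Spi1*, *Il34*, *Cx3cl1* and *Lamp2* were added after their values were seen. One gene that the rule on likeness names is not reported here.

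The deposited values are raw counts per gene, which the authors obtained with featureCounts after trimming (fastp) and alignment to GRCm39 (STAR). The annotation release, the use of strand and the handling of reads with several matches are not given in the sources used here. The labels and the study's methods name different library kits, neither of which marks strand.

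From these counts, genes were filtered with filterByExpr, normalised by TMM and fitted by genotype alone with edgeR version 4.0.16 (glmQLFit, glmQLFTest; R version 4.3.3), and p-values were given Benjamini-Hochberg adjustment over 16426 genes. The fit was tested on simulated counts. Standard errors are the log2 fold change divided by the square root of F. CPM are TMM-normalised, and correlations used log2 CPM with a prior count of 2. GENCODE gave symbols to 49355 genes, and the others held 0.111% of the counts. The count filter was set by library size and genotype, so that all 10 members were tested. Reads carry no molecular identifiers, so counting error is a lower limit.

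Alternatives were the size factors of DESeq2 (version 1.42.0), upper quartile and total count scaling, limma-voom (limma version 3.58.1), the Wald test of DESeq2, robust estimation, no filter or at least 10 counts in every library, no minimum level, a covariate for *Xist*, a replicate block and leaving out single embryos. Leaving out libraries by *Xist* counts was added after seeing the data.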

Additional observations from a re-analysis of the deposited data

Results flagged for a closer look

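In 20 groups of 5 embryos, 1 per gene and genotype, a single value stood apart from the others by Dixon's criterion. *Adgre1* had 18.2 CPM in mEC1dup/dup replicate 1, with 13.4 CPM in the nearest embryo of that genotype and 11.5 CPM in the lowest, so the gap was 0.718 of the range against a critical value of 0.710. Chance gives such a value in about 1 of 20 groups. The same embryo had the highest mean level of the 10 genes, 0.19 above its genotype mean on the log2 scale.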

How the results depend on the processing

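0 of the 10 tissue macrophage genes passed under all alternatives except the replicate block, in which 1 gene, *Mrc1*, was called lower (-0.22, adjusted p = 0.0431 from edgeR). Same-numbered libraries are different embryos. Their deviations had a mean correlation of 0.162 (-0.06 to 0.34) against -0.04 for other numbers, with 4 of 5 pairs over 0.1 and 4 of 10 libraries closest to their own number. Libraries of the same number were thus on average more alike than others. The sources do not say what they share, and the main fit did not take the numbers as pairs. With this block 487 genes were called lower across all tested genes, against 297.

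Over all tested genes, 137 were called higher. The Wald test of DESeq2 called 321 higher and 509 lower, *Xist* as a covariate 2 higher and 1 lower, the comparison without mEC1dup/dup replicates 1 to 3 left 1 higher and 0 lower, and that without replicates 1 to 4 left 0 of either, with fewer samples and a lone mEC1dup/dup library assumed to vary like the WT libraries. Leaving out each embryo gave 34 to 179 higher and 120 to 476 lower, the lowest both without mEC1dup/dup replicate 3. The median log2 fold change of the members ran from -0.08 to -0.0065 in these 10 fits.

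*Mrc1*, *F13a1*, *Ptprc* and *Cd68* kept a negative sign in all 22 alternatives, between -0.32 and -0.16, -0.30 and -0.14, -0.33 and -0.15, and -0.14 and -0.02. The lowest adjusted p of *F13a1* was 0.118. The sign of the other 6 changed around 0, and the cause was not tested. With *Xist* as a covariate it turned for *Csf1r* (0.022), *C1qb* (-0.142) and *C1qc* (0.118). Without mEC1dup/dup replicates 1 to 3 it turned for *C1qb* (-0.0635) and *C1qc* (0.0558). Without replicates 1 to 4 it turned for *Csf1r* (0.0744), *C1qb* (-0.176) and *C1qc* (0.143). With 1 embryo left out, *Csf1r* ran from -0.0641 to 0.0595, *Adgre1* from -0.177 to 0.0028, *Cx3cr1* from -0.0216 to 0.0816, *C1qa* from -0.015 to 0.0688, *C1qb* from -0.021 to 0.0593 and *C1qc* from -0.0824 to 0.0175. Depth limits *Ptprc* most, at 75 to 122 counts per library.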
